A study of Mus musculus with 4 samples.

Results

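Autophagy and mitochondrial clearance were examined through 36 genes chosen by symbol, the core autophagy machinery and the receptors that mark mitochondria and other cargo for removal. All 36 were found among the 17393 genes of the deposited table, each in 1 row, and 35 passed the filter on low values. The values came from 4 RNA libraries of DS19 cells, a mouse erythroleukemia (MEL) line arrested as an erythroid precursor, 2 from wild-type cells and 2 from Wdr26-/- (knockout) cells. The culture description names 1.5% dimethyl sulfoxide, an inducer of erythroid maturation in this line, without saying whether the sequenced cells had received it. Treatment and time are otherwise not given for either group, nor is how the knockout was made or whether it is 1 clone. The labels do not tie libraries to separate cultures, so p-values measure the spread between these libraries, which may be technical.

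In macroautophagy a flat membrane, the phagophore, grows around cargo, closes into an autophagosome and fuses with the lysosome. The ULK1 kinase complex starts it, a phosphatidylinositol 3-kinase (PI3K) complex built on Becn1 and Pik3c3 marks the membrane, and Atg9a vesicles with the Atg2 lipid-transfer proteins enlarge it. The small ubiquitin-like ATG8 proteins (the LC3 and GABARAP families) are then attached to the membrane lipid by a conjugation machinery, and receptors tie cargo to them. Maturing red cells remove their mitochondria, and Bnip3l (also called Nix), a receptor in the outer mitochondrial membrane, is known for its part in that step in reticulocytes. Tfeb is a transcription factor that drives autophagy and lysosome genes.

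The E-box CACGTG is the core of the motif bound by Tfeb and its relatives, so it was searched for on both strands of the RefSeq promoters (GRCm38.p6, the mm10 assembly, from 250 bases before to 50 bases after a start). Promoters were listed for 29 of the 36 genes, 34 promoters in all. CACGTG stood in 4 of the 34 (11.8%), those of Atg3, Atg5, Atg7 and Atg14, against 10.5% of promoters of all genes tested and 7.15% of all 32851 promoters. AGATAA, the motif of the erythroid factor Gata1, was found in 2 of the 34 (5.88%, against 6.17% for genes tested), and the antioxidant response core TGACNNNGC in 3 (8.82%, against 14.5%). Below are the promoter of Atg3, the only one with 2 matches, the window listed for Atg7, the one of the 4 genes that was higher in both knockout libraries, and that of Atg16l2, the gene with the largest difference, which has no match. Capitals mark CACGTG. The start listed for Atg7 lies well inside the annotated gene (chromosome 6, 114643127 to 114860604), and the window at its first base was not searched.
Atg3 (chr16:45158579-45158878, plus strand): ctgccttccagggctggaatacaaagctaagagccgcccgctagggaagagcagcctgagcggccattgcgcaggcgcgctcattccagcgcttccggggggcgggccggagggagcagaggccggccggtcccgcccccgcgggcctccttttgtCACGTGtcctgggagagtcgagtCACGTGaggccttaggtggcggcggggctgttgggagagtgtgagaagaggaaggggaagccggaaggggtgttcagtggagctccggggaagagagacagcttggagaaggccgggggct
Atg7 (chr6:114670846-114671145, plus strand): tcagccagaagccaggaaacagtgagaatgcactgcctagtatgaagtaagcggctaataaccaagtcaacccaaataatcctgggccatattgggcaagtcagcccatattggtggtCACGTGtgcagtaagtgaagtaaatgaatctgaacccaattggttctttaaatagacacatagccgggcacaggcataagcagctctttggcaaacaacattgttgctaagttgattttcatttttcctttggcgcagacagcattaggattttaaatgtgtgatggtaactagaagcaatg
Atg16l2 (chr7:101302039-101302338, minus strand): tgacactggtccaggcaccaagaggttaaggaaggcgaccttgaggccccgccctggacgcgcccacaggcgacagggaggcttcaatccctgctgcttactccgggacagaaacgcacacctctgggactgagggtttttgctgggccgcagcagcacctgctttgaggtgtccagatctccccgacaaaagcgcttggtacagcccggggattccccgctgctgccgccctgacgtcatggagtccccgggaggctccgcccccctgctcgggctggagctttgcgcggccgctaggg

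Expression is given as FPKM (fragments per kilobase of transcript scaled for sequencing depth), so levels of different genes can be compared. Steps in the lowest values corresponded to 21800000 to 23100000 fragments per library if 100 bases are taken off each transcript's length, and to 25000000 to 26400000 if 200 are. Wdr26, the targeted gene, measured 55.4 and 52.4 FPKM in the wild-type pair against 9 and 7.84 FPKM in the knockout pair (log2 change −2.55, SE 0.14, limma adjusted p = 0.0063). That call was lost without wild-type library 1 (adjusted p = 0.0682) or 2 (0.0549). All 10 erythroid markers examined reached 1 FPKM in every library, and they summed, mostly through globins, to 167763 and 207054 FPKM in wild-type libraries 1 and 2 and to 152694 and 178737 FPKM in the knockout libraries. Of the 10, 6 were lower in both knockout libraries (Klf1, Alas2, Tfrc, Epor, Slc4a1 and Ermap), none past the test, where 10.8% of all genes tested were lower in both. Slc4a1, the anion exchanger of the red cell membrane, measured 436 and 285 FPKM in the wild-type pair against 48.6 and 6.70 FPKM in the knockout pair (limma adjusted p = 0.166). The part of these levels in the values of the autophagy genes was not tested. The myeloid list (8 genes) summed to 3.42 and 2.34 FPKM in the wild-type pair against 4.03 and 3.26 FPKM in the knockout pair. Elane, of that list, was listed at 0 in all libraries, and 1 gene, Cd68, reached 1 FPKM in every library. Cd68 measured 1.74 and 1.11 FPKM in the wild-type pair against 2.25 and 1.88 FPKM in the knockout pair. Of the 4 fibroblast genes only 2 were in the table, and these summed to at most 0.61 FPKM. The megakaryocyte list (5 genes) summed to 247 and 301 FPKM in the wild-type pair and to 273 and 284 FPKM in the knockout pair, mostly through Itga2b. Of the 5, 3 reached 1 FPKM in every library, and Ppbp stood at 0.09 FPKM or less.

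None of the 35 autophagy genes tested passed the test between genotypes (limma on log2(FPKM + 1), Benjamini-Hochberg adjusted over 10670 genes, threshold 0.05), where 10 of all genes did, 0.0937%. At an unadjusted p under 0.05 the count was again 0 of 35, while 1218 of all genes, 11.4%, lay below that value. The smallest adjusted p among the members was 0.469, that of Atg16l2. Differences were small: the median size of the log2 change, regardless of sign, was 0.096 over the members and 0.15 over all genes tested. The largest was 0.50, and the 95% interval of the log2 change lay between −1 and 1 for 34 of the 35, against 91.8% of all genes. The exception was Atg16l2, whose interval reached 1.02. These intervals, each for 1 gene without adjustment, rest on the spread between these libraries, which may be technical. They therefore do not bound the difference between genotypes in other cultures. A p that misses the threshold does not show that levels were equal.

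**Figure D1:**
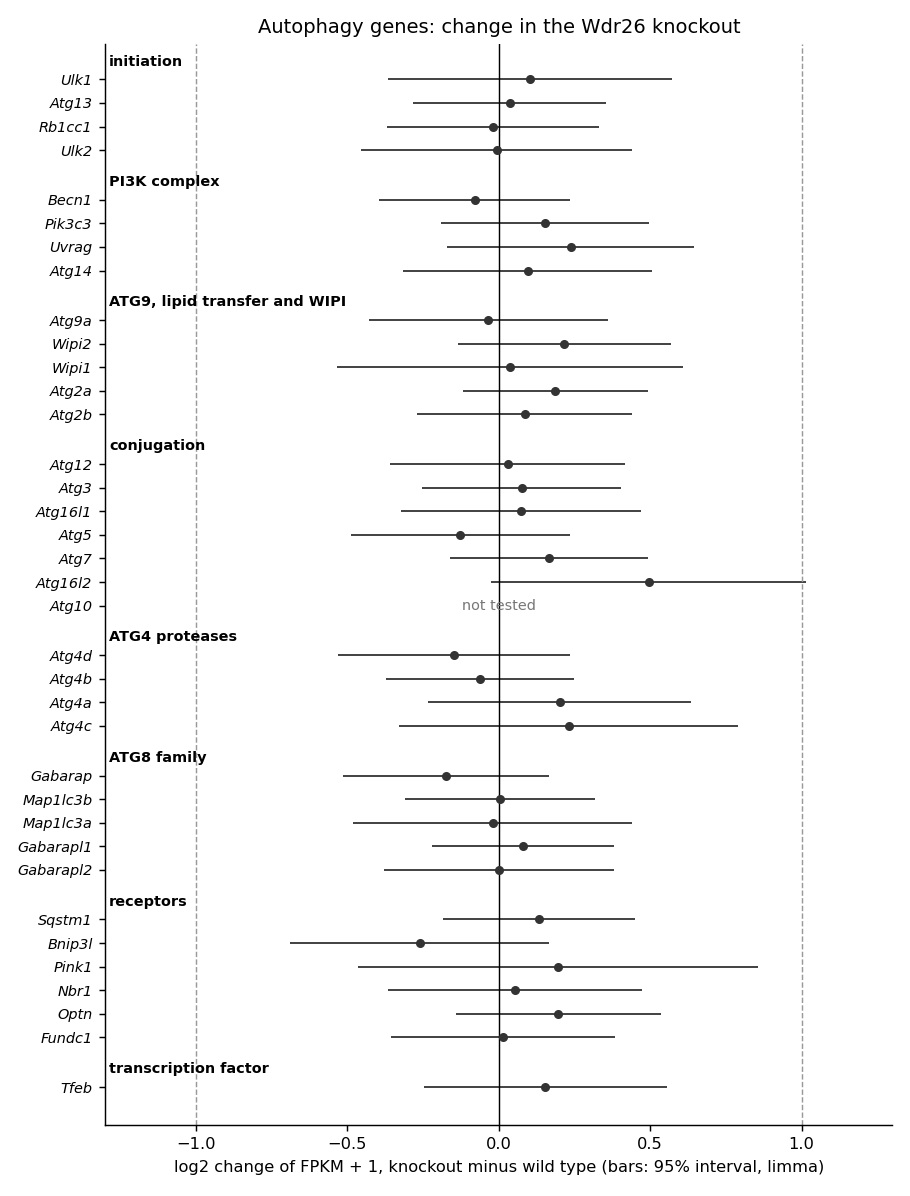
Log2 change of FPKM + 1 (knockout minus wild type) for 35 autophagy genes, grouped by role, with the 95% interval from limma; dashed lines mark a 2-fold change. Every interval includes 0, and that of Atg16l2 alone passes a dashed line.

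Groups that did not overlap were counted as a description. In all, 8 members were higher in both knockout libraries than in either wild-type library (22.9% of 35, against 29.9% of all genes), and 2 were lower in both (5.71%, against 10.8%). The 8 were Atg16l2, Wipi2, Atg2a, Optn, Atg7, Pik3c3, Sqstm1 and Gabarapl1, and the 2 were Gabarap and Atg4b. The split depended on scaling. With each library centred on its median, 2 members were higher in both (19.9% of all genes were) and 6 lower in both (20.1% of all genes). Under centring Atg16l2 and Atg2a stayed higher, Gabarap and Atg4b stayed lower, and Becn1, Atg5, Atg4d and Map1lc3b joined the lower group. The members' median log2 change was 0.073, beside 0.067 over all genes tested, and centring moved these to −0.0039 and −0.0095. In bulk RNA a change in the share of cells at a given stage and a change in RNA per cell cannot be told apart.

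**Figure D2:**
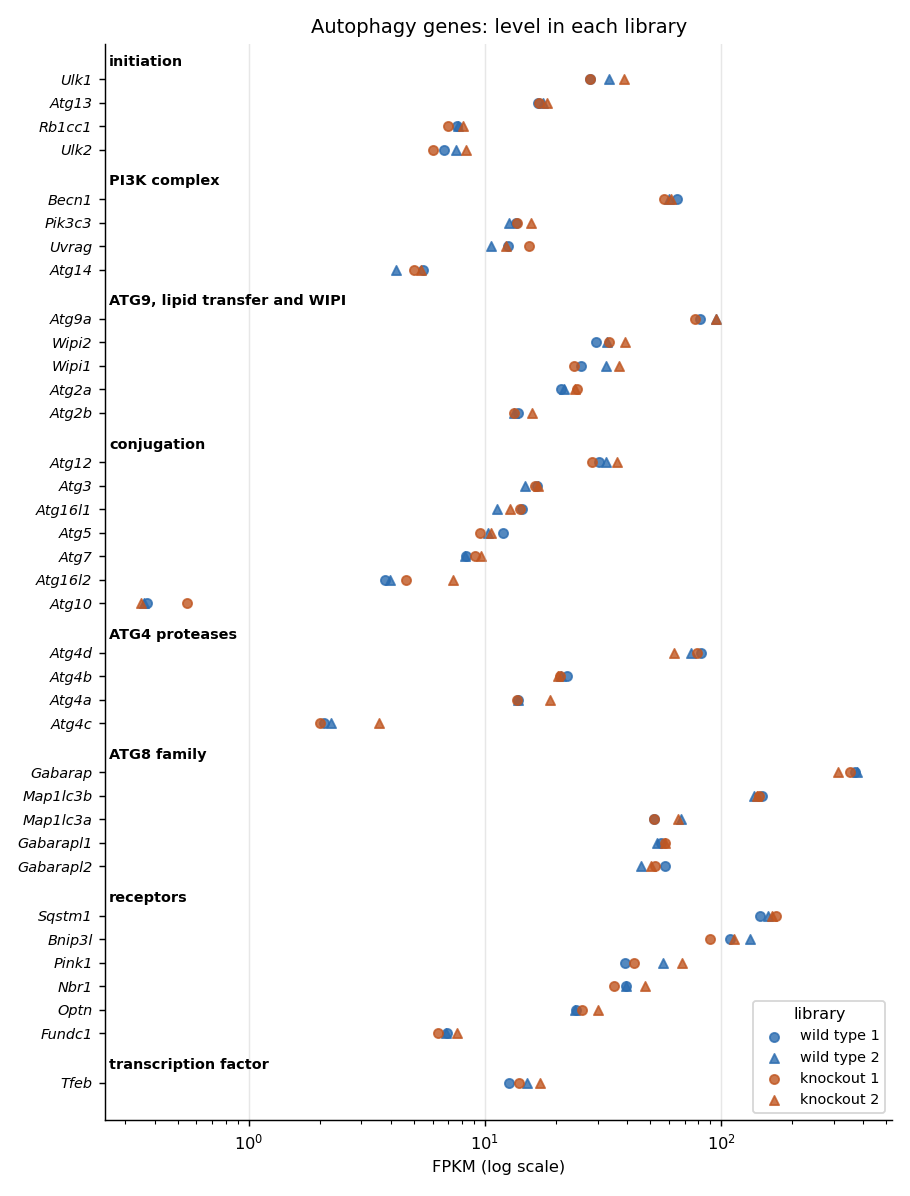
FPKM of the 36 autophagy genes in each library on a log axis, grouped by role; circles are libraries numbered 1, triangles those numbered 2, blue wild type, orange knockout. Levels run from Atg10, under 1 FPKM, up to Gabarap, and the 4 points of most genes lie close together.

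In wild-type cells 4 members averaged at least 100 FPKM, 24 between 10 and 100 FPKM and 8 less than 10 FPKM. The median member stood at 21.4 FPKM, compared with 11.2 FPKM for the median gene tested. The order at the top was Gabarap, then Sqstm1 and Map1lc3b, whose 2 libraries each overlapped, then Bnip3l, then Atg9a. Atg10, the E2-like enzyme that attaches Atg12 to Atg5, was the lowest member, at 0.37 and 0.36 FPKM in the wild-type pair against 0.55 and 0.35 FPKM in the knockout pair, and was not tested. Genes on the opposite strand share over 10% of the exonic bases of 5 members (Becn1, Gabarapl1, Atg4d, Uvrag and Sqstm1), and Gm29253 shares 31.8% of those of Atg9a on its own strand; whether the counting used strand is not given, so reads of these genes may be mixed.

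Among the mitophagy receptors, Bnip3l (gene ID 12177, chromosome 14, 66985238 to 67008877) stood at 109 and 133 FPKM in wild-type libraries 1 and 2 and at 89.4 and 113 FPKM in knockout libraries 1 and 2. The lowest value was that of knockout library 1 and the highest that of wild-type library 2, and the groups overlapped. Its mean was 121 ± 16.8 FPKM in wild-type cells against 101 ± 16.6 FPKM in the knockout (SD, n = 2), a log2 change of −0.26 with a 95% interval from −0.69 to 0.17 (limma adjusted p = 0.664). Leaving out knockout library 1 or wild-type library 2 gave −0.095 and −0.12, and leaving out wild-type library 1 or knockout library 2 gave −0.40 and −0.43. A near-identical transcript, Bnip3l-ps (99.4% identity over 1131 bases), may share its reads. Fundc1, a receptor of the same membrane that acts in hypoxia, was low, at 6.94 and 6.84 FPKM in the wild-type pair against 6.33 and 7.65 FPKM in the knockout pair. Its wild-type values lay between the knockout values (log2 change 0.013, interval −0.36 to 0.38).

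Pink1 (gene ID 68943, chromosome 4, 138313409 to 138326296) encodes the kinase that accumulates on damaged mitochondria and recruits the ligase Parkin. It measured 39.1 and 56.5 FPKM in the wild-type pair against 42.6 and 68.3 FPKM in the knockout pair. The library numbered 2 was higher in both genotypes, by 0.52 in wild type and 0.67 in knockout on the log2 scale, more than the 0.19 between genotypes (95% interval −0.47 to 0.86, limma adjusted p = 0.873). That 0.19 became −0.14 and −0.065 when knockout library 2 or wild-type library 1 was left out, and 0.53 and 0.45 when knockout library 1 or wild-type library 2 was.

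The receptors that read ubiquitin on cargo were Sqstm1 (p62), Nbr1 and Optn. Sqstm1 (gene ID 18412, chromosome 11, 50200152 to 50210820) measured 147 and 158 FPKM in the wild-type pair against 170.0 and 165 FPKM in the knockout pair. Both knockout values were above both wild-type values by a small margin (log2 change 0.13, interval −0.18 to 0.45, limma adjusted p = 0.796), an order that centring removed. Optn, which links ubiquitin-marked mitochondria to LC3, measured 24.3 and 23.98 FPKM in wild type against 25.7 and 30.02 FPKM (log2 change 0.20, interval −0.14 to 0.53). Nbr1 measured 39.7 and 39.4 FPKM in the wild-type pair against 35.4 and 47.7 FPKM in the knockout pair, so that the knockout libraries lay on either side of the wild type.

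**Figure D3:**
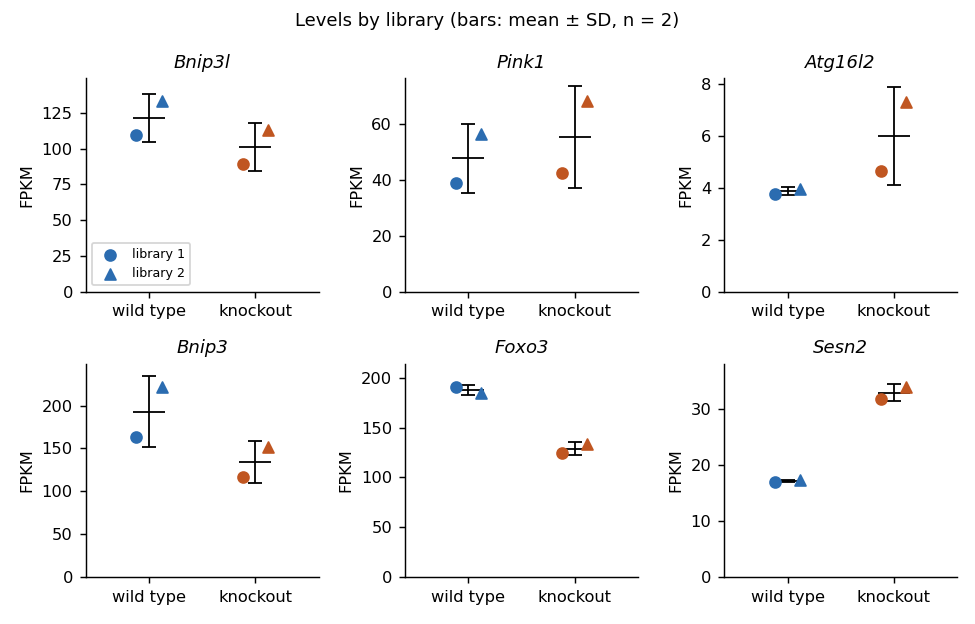
FPKM by library for 3 autophagy genes (Bnip3l, Pink1, Atg16l2) and 3 related genes (Bnip3, Foxo3, Sesn2); circles are libraries numbered 1, triangles those numbered 2, bars the mean ± SD (n = 2). Genotypes overlap for Bnip3l and Pink1 and do not for the other 4 genes.

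The ATG8 family was dominated by Gabarap (gene ID 56486, chromosome 11, 69991370 to 69994949), which supplied 54.1% and 55.1% of the family's summed FPKM in the wild-type libraries, against 53.2% and 49.6% in the knockout ones. It measured 370.1 and 375 FPKM in the wild-type pair against 350.3 and 311 FPKM in the knockout pair. Both knockout libraries were lower, with a log2 change of −0.17 (interval −0.51 to 0.17, limma adjusted p = 0.741). Dropping knockout library 1 gave −0.26, and dropping knockout library 2 gave −0.088. Map1lc3b (LC3B), the ATG8 protein most used to follow autophagosomes, measured 149 and 138 FPKM in wild type against 145 and 142 FPKM, with overlapping groups. Its change was 0.0042, with an interval from −0.31 to 0.32 (−0.073 and lower in both knockout libraries with centring).

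Map1lc3a measured 51.7 and 67.7 FPKM in the wild-type pair against 51.9 and 65.6 FPKM in the knockout pair. Its values therefore paired by library number and not by genotype. Gabarapl1 measured 55.7 and 53.6 FPKM in wild type against 57.9 and 57.7 FPKM. It was higher in both knockout libraries by a log2 change of 0.080 (interval −0.22 to 0.38). Gabarapl2 measured 58.0 and 45.8 FPKM in wild type against 52.7 and 50.5 FPKM, with the knockout values between those of the wild type. Processed pseudogenes with at least 95% identity over at least 200 bases exist for Map1lc3b (4) and Gabarapl2 (3), so the split of reads is uncertain for both.

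ATG4 proteases trim ATG8 proteins before conjugation and release them afterwards. Atg4d was the most abundant, at 82.2 and 74.8 FPKM in the wild-type pair against 79.0 and 63.2 FPKM in the knockout pair, and the groups overlapped (log2 change −0.15, interval −0.53 to 0.24). Kri1, which overlaps 19.3% of its exonic bases on the opposite strand, measured 29.3 and 26.2 FPKM in wild type against 26.4 and 21.5 FPKM. Atg4b measured 22.2 and 21.0 FPKM in wild type against 20.9 and 20.4 FPKM, a change of −0.062. Atg4a and Atg4c had their highest value in knockout library 2 (18.9 and 3.55 FPKM), while the remaining libraries lay between 13.7 and 13.9 FPKM and between 2.01 and 2.22 FPKM. Atg4a has a near-identical copy, Atg4a-ps (99.3% identity over 2115 bases).

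Within the conjugation machinery Atg16l2 (gene ID 73683, chromosome 7, 101286325 to 101302267), the less studied relative of the scaffold Atg16l1, showed the largest difference of all members. It measured 3.76 and 3.97 FPKM in the wild-type pair against 4.65 and 7.32 FPKM in the knockout pair. Both knockout values were higher, but they lay 2.67 FPKM apart, more than the 0.68 FPKM between knockout library 1 and the higher wild-type value. The log2 change was 0.50 (SE 0.21, interval −0.025 to 1.02, limma unadjusted p = 0.0588). It passed without knockout library 1 (log2 change 0.77, limma adjusted p = 0.0231) and was 0.22 without knockout library 2 (0.822). Atg16l1 itself measured 14.3 and 11.3 FPKM in wild type against 14.1 and 12.8 FPKM, with overlapping groups (change 0.073, interval −0.32 to 0.47).

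Atg12, the ubiquitin-like protein joined to Atg5, was the most abundant of this machinery, at 30.5 and 32.6 FPKM in the wild-type pair against 28.5 and 36.4 FPKM in the knockout pair. Atg7, the E1-like enzyme that activates it, measured 8.29 and 8.21 FPKM in wild type against 9.10 and 9.67 FPKM, higher in both knockout libraries (log2 change 0.17, interval −0.16 to 0.49) but not with centring. Atg5 averaged 11.1 ± 1.19 and 10.1 ± 0.813 FPKM and the E2-like enzyme Atg3 15.7 ± 1.26 and 16.5 ± 0.304 FPKM (SD, n = 2), with overlapping groups for both genes. Of the 6 conjugation genes tested, 2 were higher in both knockout libraries, near the 29.9% of all genes, and 0 were lower in both (10.8% of all genes), without centring.

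None of the initiation genes had groups that stood apart (0 of 4, against 40.7% of all genes tested). Ulk1, the kinase, measured 27.9 and 33.4 FPKM in the wild-type pair against 27.9 and 38.7 FPKM in the knockout pair, with libraries numbered 1 nearly equal and those numbered 2 higher (log2 change 0.10, interval −0.37 to 0.57). Its relative Ulk2, the scaffold Rb1cc1 (FIP200) and the adaptor Atg13 had changes of −0.0065, −0.020 and 0.037.

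Of the PI3K complex, Becn1 was the most abundant, at 65.2 and 60.3 FPKM in the wild-type pair against 57.3 and 61.4 FPKM in the knockout pair (log2 change −0.079, interval −0.39 to 0.24). Wild-type library 1 held the highest value and knockout library 1 the lowest. Cntd1 covers 43.9% of its exonic bases on the opposite strand, and at no more than 0.62 FPKM it was far below Becn1. The lipid kinase Pik3c3 (VPS34) measured 13.6 and 12.6 FPKM in wild type against 13.7 and 15.7 FPKM, with knockout library 1 only 0.13 FPKM above wild-type library 1. Atg14 and Uvrag, which take the complex to the phagophore and to late endosomes, had overlapping groups and changes of 0.096 and 0.24.

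For membrane supply, Atg9a, the scramblase of the vesicles that seed the phagophore, measured 81.2 and 95.2 FPKM in the wild-type pair against 77.4 and 95.1 FPKM in the knockout pair, again ordered by library number (change −0.035, interval −0.43 to 0.36). Atg2a measured 20.9 and 21.5 FPKM in wild type against 24.4 and 24.1 FPKM. Its groups stood apart by more than the spread within either, with a log2 change of 0.19 (interval −0.12 to 0.49, limma adjusted p = 0.665), and 0.11 with centring. Wipi2, which recruits the conjugation machinery to the membrane, measured 29.4 and 32.97 FPKM in wild type against 33.7 and 39.2 FPKM (change 0.22, interval −0.14 to 0.57), with 0.69 FPKM between the groups. Wipi1 measured 25.6 and 32.6 FPKM in wild type against 23.8 and 36.9 FPKM, the knockout pair enclosing the wild-type pair.

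Tfeb (gene ID 21425, chromosome 17, 47737037 to 47792416) measured 12.6 and 15.1 FPKM in the wild-type pair against 13.97 and 17.1 FPKM in the knockout pair. Knockout library 1 lay between the wild-type libraries (log2 change 0.15, interval −0.25 to 0.55, limma adjusted p = 0.822).

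Library number accompanied many of these values in both genotypes. Library 2 was above library 1 in both genotypes for 15 of the 35 members (42.9%, against 24.02% of all genes) and below it in both for 7 (20.0%, against 46.5%). The 15 included Pink1, Wipi1, Ulk1, Map1lc3a, Bnip3l, Atg9a and Tfeb, and the 7 included Uvrag, Atg4d and Gabarapl2. Across the 35 genes the difference between library 2 and library 1 in wild type correlated with that in knockout (Pearson's r = 0.67, and 0.61 over all 10670 genes). This is across genes of the same 4 libraries, and genes are not independent replicates. The median size of the difference between libraries was 0.11 within wild type and 0.22 within knockout (0.17 and 0.20 over all genes). Between genotypes it was 0.096 (0.15 over all genes), but that is a difference of means of 2 libraries, which averaging makes smaller. The part of the difference between libraries in the differences between genotypes was not tested.

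**Figure D4:**
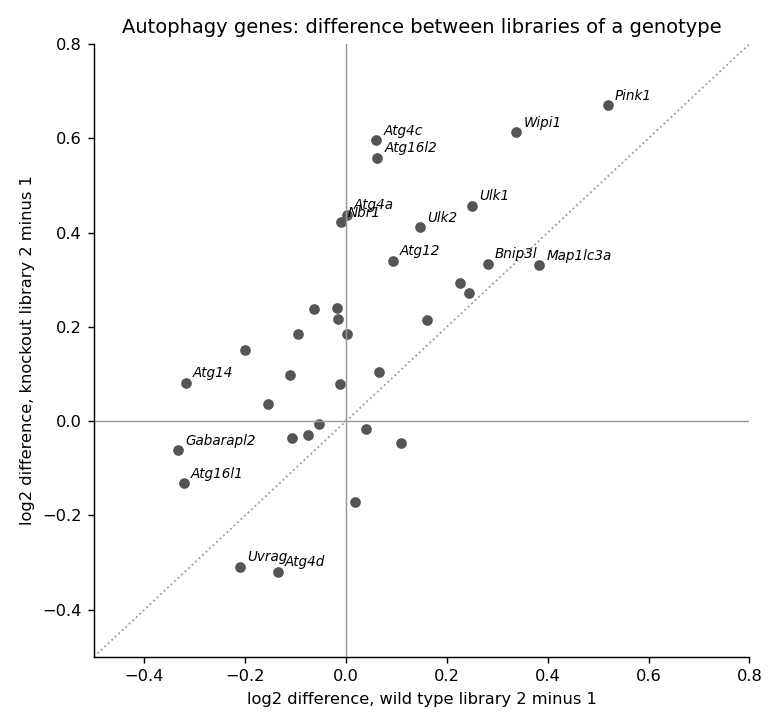
Log2 difference between library 2 and library 1 in wild type (horizontal) and in knockout (vertical) for the 35 genes tested; the dotted line marks equal differences, and genes over 0.3 in either genotype are named. Pink1 and Wipi1 lie farthest to the upper right, and 15 genes lie above 0 on both axes.

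Genes around this machinery were taken from 7 lists of 127 genes, of which 126 were in the table and 121 were tested. As with the members, none passed the test. At an unadjusted p under 0.05 there were 5 higher and 3 lower, 6.61% of the 121, less than the 11.4% of all genes. The 8 are given here as values, with none past the adjusted threshold. Both knockout libraries were above both wild-type ones for 30 of these genes and below them for 9 (24.8% and 7.44%), beside 29.9% and 10.8% of all genes, without centring. With centring the number higher in both fell or stayed the same in every list, and the number lower in both rose in every list. The shares of all genes were then 19.9% and 20.1%.

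Upstream of the ULK1 complex (30 genes tested), the 1 gene with an unadjusted p under 0.05 was Sesn2. It encodes a stress-induced leucine sensor that restrains mTORC1, the kinase complex that holds autophagy in check. Sesn2 measured 17.1 and 17.3 FPKM in the wild-type pair against 31.9 and 34.1 FPKM in the knockout pair. The groups lay farther apart than the libraries within either, and the knockout mean was 192% of the wild-type mean (log2 change 0.90, SE 0.13, limma adjusted p = 0.101). Sesn2 passed when knockout library 1 (adjusted p = 0.00014) or knockout library 2 (0.002) was left out, and not without wild-type library 1 (0.619) or 2 (0.503). The median of its list was 0.069, with 5 of the 30 genes higher and 2 lower in both knockout libraries (3 and 5 with centring), beside 29.9% and 10.8% of all genes (19.9% and 20.1% with centring).

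Of the MiT/TFE and FoxO factors (6 tested), Foxo3, a regulator of autophagy and antioxidant genes in erythroid cells, measured 191 and 185 FPKM in the wild-type pair against 124 and 133 FPKM in the knockout pair. Both knockout libraries were lower, at 68.5% of the wild-type mean (log2 change −0.54, interval −0.86 to −0.23, limma unadjusted p = 0.00544, adjusted p = 0.236). The change ran from −0.62 to −0.49 over the 13 alternatives tried. Foxo3 was the 1 gene of the 6 with both knockout values under the wild-type pair, and 3 had both over it. After centring the split was 2 over and 2 under. Among all genes 29.9% lay over and 10.8% under (19.9% and 20.1% with centring). The median log2 change of the 6 was 0.15 (0.074 with centring). Tfec was not matched in the table.

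Among further mitophagy and selective receptors (22 tested), 6 were higher in both knockout libraries and 2 lower (5 and 4 with centring), near the 29.9% and 10.8% of all genes (19.9% and 20.1% with centring). Bnip3, the close relative of Bnip3l that is induced by hypoxia, was the most abundant. It measured 163 and 222 FPKM in the wild-type pair against 116 and 152 FPKM in the knockout pair. Both knockout libraries were lower, by 11.8 FPKM at the nearest pair (log2 change −0.52, interval −1.02 to −0.010, limma unadjusted p = 0.0467, adjusted p = 0.429). Bnip3 passed without knockout library 2 (log2 change −0.71, limma adjusted p = 0.0381) and was −0.30 without wild-type library 2. Fam134b (Retreg1), a receptor for the endoplasmic reticulum, measured 2.50 and 2.09 FPKM in wild type against 1.57 and 0.99 FPKM (log2 change −0.54, limma adjusted p = 0.395). With 0.1 added to each value in place of 1, which draws the change of low genes less toward 0, it was −0.82.

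Higher in both knockout libraries were Nipsnap1, a mitochondrial protein that can mark damaged mitochondria, and Ccpg1, another receptor for the endoplasmic reticulum. Nipsnap1 measured 2.57 and 2.68 FPKM in the wild-type pair against 3.54 and 4.60 FPKM in the knockout pair (log2 change 0.48, limma adjusted p = 0.387). With 0.1 added to each value in place of 1, its change was 0.60. Ccpg1 measured 6.10 and 5.95 FPKM in wild type against 7.58 and 8.60 FPKM (log2 change 0.37, limma adjusted p = 0.408). Zfyve1 (DFCP1), which marks the membrane where phagophores form, was the gene with p under 0.05 among 16 further phagophore genes, with 11.6 and 10.7 FPKM in wild type against 13.6 and 16.0 FPKM (log2 change 0.38, limma adjusted p = 0.408).

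For fusion with the lysosome (15 tested) and for mitochondrial dynamics (12 tested), 0 genes had an unadjusted p under 0.05 in limma. The share of all genes was 11.4%. In both knockout libraries 5 fusion genes were higher and 0 lower (4 and 1 with centring). Of the dynamics genes 2 were higher and 1 lower (2 and 3 with centring). The shares of all genes were 29.9% and 10.8% (19.9% and 20.1% with centring). Rab7, the late endosomal GTPase, measured 127 and 97.5 FPKM in the wild-type pair against 113 and 87.8 FPKM in the knockout pair, and Fis1, of the fission machinery, 123 and 127 FPKM in wild type against 125 and 87.6 FPKM. Groups overlapped for both genes, though with centring Fis1 was lower in both knockout libraries. Mitochondrial content genes (20 tested), which belong to the organelle itself rather than its removal, had a median of −0.011 (−0.088 with centring). The amount of the organelle was not measured. Both knockout libraries were higher for 5 of the 20 genes and lower for 2 (2 and 6 with centring), beside 29.9% and 10.8% of all genes (19.9% and 20.1% with centring). Uqcrc1, a core subunit of respiratory complex III, measured 84.7 and 87.7 FPKM in wild type against 119 and 106 FPKM (log2 change 0.37, limma adjusted p = 0.382).

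**Figure D5:**
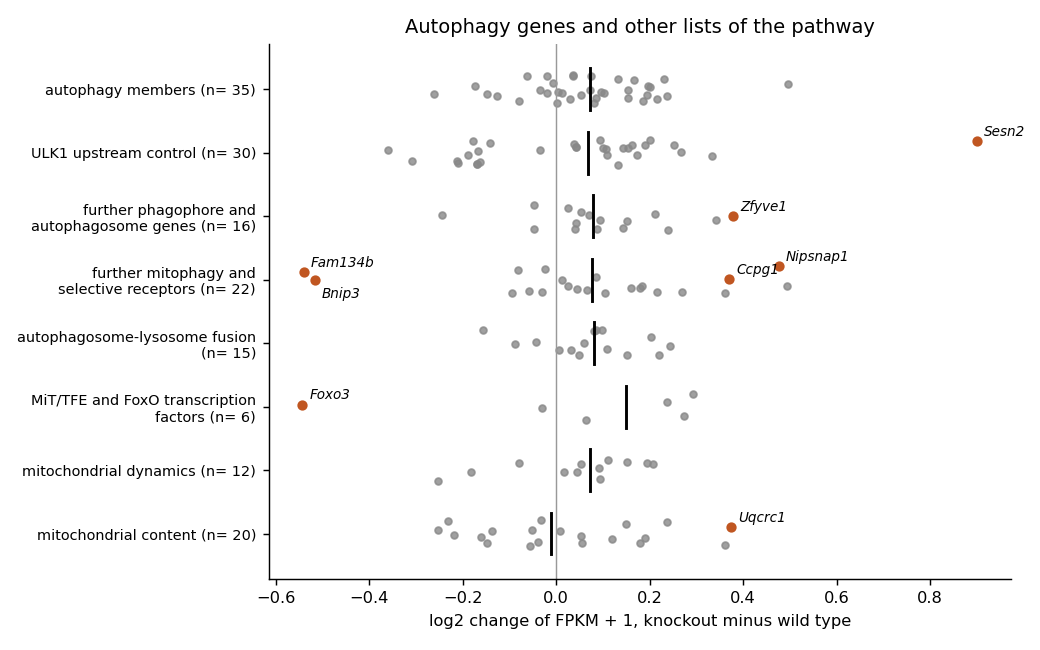
Log2 change of FPKM + 1 (knockout minus wild type) of each tested gene, with 1 row for the 35 autophagy genes and 1 for each of the other 7 lists. The black bar is the median, and orange points with names have an unadjusted p under 0.05 in limma. No autophagy gene is orange, Sesn2 lies farthest right and Foxo3 and Fam134b farthest left.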

How the data were processed

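Ribosomal RNA was removed before sequencing, per the labels' protocols. Per the file headers, the authors made 1 value per gene and library before they deposited the table, with no unit named, and the unit was identified as FPKM from the deposited values. Multiplied by transcript length, these summed to between 1.02e+09 and 1.04e+09 per library, as FPKM does. TopHat2 and mm10 are named in the submitters' processing notes; neither the quantification program nor strandedness is given in the sources used here. The values of 13 members include transcripts assembled from the reads.

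Genes reaching 1 FPKM in 2 or more libraries were tested on log2(FPKM + 1) with limma 3.58.1 in R 4.3.3 (mean-variance trend, no covariates). The p-values were adjusted by Benjamini-Hochberg over 10670 genes. Adding 1 to each value draws the log2 change of low genes toward 0. With 0.1 added instead, that of Atg16l2 was 0.58. An exact permutation test of 2 libraries against 2 reaches no p smaller than 0.333 and was not run. The members and lists were chosen with earlier results of these data known. Named were all members with their role, list genes with an unadjusted p under 0.05 (at most 4 per list), or else the most abundant gene. Coordinates are those of RefSeq on GRCm38.p6, overlaps those of GENCODE M21, and copies were sought with blastn 2.17.0. The procedure was tested on simulated data whose libraries varied independently, with changes placed only in genes of at least 5 FPKM in both wild-type libraries. That test does not cover lower genes or libraries that vary together. The result of 1 further marker list is not reported here.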

Additional observations from a re-analysis of the deposited data

How the results depend on the processing

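No member passed under median centring, quantile normalization, rescaling without 11 globin genes, a pseudocount of 0.1, no filter, a mean of at least 5 FPKM or no variance trend. The members' median was −0.0039 with centring, −0.018 with quantile normalization and 0.019 without globins. Over all genes tested it was −0.0095, −0.0070 and 0.016. In these 3 settings 2, 3 and 4 members were higher in both knockout libraries and 6, 5 and 2 lower. Of all genes, 21 passed without globins, 2 under the 5 FPKM minimum and 0 without the filter (1692 at an unadjusted p under 0.05 in limma), where Wdr26 (−2.55) had an adjusted p of 0.0675. Leaving out each library in turn, the median ran from −0.018 to 0.14, members called from 0 to 1, genes called from 0 to 720 and Wdr26 from −2.63 to −2.46. Over all genes tested the median ran from 0.019 to 0.12 in these fits. The lone library of an arm is then assumed to vary like the others. Members higher and lower than every library of the other arm numbered 14 and 5 when wild-type library 1 was dropped and 12 and 9 when wild-type library 2 was. Dropping knockout library 1 gave 22 and 3, and dropping knockout library 2 gave 9 and 16. An arm of 1 library stands apart from the other arm more often, whatever the gene. The shares of all genes were not counted for these fits, nor for quantile normalization or without globins. These counts are therefore not a result about the members. Between 4 and 11 members changed sign. The cause of these shifts was not tested.

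With the library number as a replicate block, 1863 of 10670 genes and 1 of 35 members, Atg16l2, passed (limma adjusted p = 0.00754). Sesn2, Foxo3, Bnip3, Fam134b, Nipsnap1, Ccpg1, Uqcrc1 and Zfyve1 passed too. These 8 had been named for an unadjusted p under 0.05 in limma without the block. The libraries are the same, so their passing is no separate support. With the block on median-centred values 1391 genes and 1 member passed (Atg16l2, adjusted p = 0.0427), the median was −0.0039, and 2 members were higher and 6 lower. Ccpg1 (limma adjusted p = 0.0985), Uqcrc1 (0.105) and Zfyve1 (0.082) then missed the threshold, and the other 5 genes passed. The member Bnip3l missed it in both fits with the block (limma adjusted p = 0.0726, and 0.057 on median-centred values). Deviations of same-numbered libraries correlated (0.61 over all genes tested), but the labels tie the numbers to no shared culture or day. Atg10, below the filter in every library, was tested only without the filter.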
